A study of Homo sapiens with 8 samples.

Results

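The BCL2 family decides whether a cell opens its mitochondrial outer membrane and dies by intrinsic apoptosis, and 10 of its genes were followed here in BE(2)-M17 cells with and without interferon-γ (IFN-γ). They were taken from the deposited gene table by symbol: BCL2, BCL2L1, MCL1, BAX, BAK1, BCL2L11, BBC3, PMAIP1, BID and BAD. All 10 symbols were found among the 26372 genes of the table, each once, and all 10 passed the filter of a mean of at least 0.5 FPKM over the 8 libraries, which 13598 genes passed. FPKM divides the fragments of a gene by transcript length and by library depth, so levels of different genes can be compared per length.

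BE(2)-M17 (M17 in the labels) is a human neuroblastoma cell line. The growth protocol also names SH-SY5Y, another neuroblastoma line, but all 8 libraries carry the label M17. The untreated group held 4 libraries of this line and the treated group held 4 libraries of the same line kept for 24 h with 10 ng/ml IFN-γ, a cytokine of T cells and natural killer cells. No transgene or knockdown is named in the labels of either group, and they do not say whether the 4 libraries of a group were separate cultures, so the p-values below rest on library-to-library spread alone, and that may be technical. The design compares the untreated with the treated cells.

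Family members are sorted by role. BCL2, BCL-XL (from BCL2L1) and MCL1 hold the effectors in check, BAX and BAK (from BAK1) form the pores that release cytochrome c, and the BH3-only proteins BIM (from BCL2L11), PUMA (from BBC3), NOXA (from PMAIP1), BID and BAD bind the guardians or the effectors and tip the balance. NOXA binds mainly MCL1, BAD binds BCL2 and BCL-XL, and BIM and PUMA bind all the guardians. BID is cut by caspase-8, which links death receptors to mitochondria. Much of the control of these proteins lies in splicing, phosphorylation and degradation, none of which a gene-level RNA value shows. BCL2L1, MCL1 and BCL2L11 in particular give rise to isoforms of different activity that share 1 value here.

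The upstream DNA of the rising genes, with BAX as the other effector, is shown because these members changed unequally. Sequences are from RefSeq on GRCh38.p14, 5′ to 3′ on the gene's strand, from 250 bases before the RefSeq start to the edge of the gene in GENCODE release 29. PMAIP1 is chr18:59899746-59899947 on the + strand, BAK1 is chr6:33580294-33580526 on the - strand, BCL2L1 is chr20:31723990-31724213 on the - strand and BAX is chr19:48954625-48954814 on the + strand. Capitals mark every match, on either strand, to 7 motifs: GAS (TTCNNNGAA, the gamma-activated site), an ISRE-like site (a pair of GAAA blocks with any 2 bases between them), the IRF half-site (AANNGAAA, which every ISRE-like match contains), CRE (TGACGTCA), the E-box of MYC proteins (CACGTG), the GC box (GGGCGG) and CCAAT. No window was given for MCL1.
PMAIP1: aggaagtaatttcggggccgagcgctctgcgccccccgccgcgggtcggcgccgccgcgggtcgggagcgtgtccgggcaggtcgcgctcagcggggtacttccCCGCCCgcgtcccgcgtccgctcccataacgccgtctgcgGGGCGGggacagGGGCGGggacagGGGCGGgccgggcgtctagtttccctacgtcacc
BAK1: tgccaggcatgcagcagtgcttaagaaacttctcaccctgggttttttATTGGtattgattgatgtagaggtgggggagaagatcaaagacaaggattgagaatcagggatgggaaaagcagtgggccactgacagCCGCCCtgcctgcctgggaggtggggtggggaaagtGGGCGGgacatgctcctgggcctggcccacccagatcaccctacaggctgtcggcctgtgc
BCL2L1: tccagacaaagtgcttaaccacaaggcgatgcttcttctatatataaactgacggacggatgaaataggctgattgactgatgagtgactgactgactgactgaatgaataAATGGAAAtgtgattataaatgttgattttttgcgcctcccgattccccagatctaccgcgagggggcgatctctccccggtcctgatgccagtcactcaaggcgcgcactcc
BAX: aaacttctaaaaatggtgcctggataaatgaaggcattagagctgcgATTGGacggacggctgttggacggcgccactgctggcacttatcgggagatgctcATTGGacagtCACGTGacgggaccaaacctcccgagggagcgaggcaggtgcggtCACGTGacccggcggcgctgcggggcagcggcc

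No GAS match and no CRE match lay in any of the 15 RefSeq windows (250 bases before to 50 after a start) of the 9 members that had one, where 7.66% and 1.85% of all 35116 windows hold one. The capitals in PMAIP1 are 4 GC boxes, first bases at -146, -106, -94 and -82 from the RefSeq start, and those in BAK1 are 2 GC boxes, at -114 and -78, and a CCAAT match at -202. Of all windows 45.0% hold a GC box and 34.6% a CCAAT match. A GC box lay in 7 of the 9 members with a window, BCL2L11, BID and BAD among them. In BCL2L1 the capitals are an IRF half-site at -139, and a second RefSeq window of the gene held IRF half-sites at -158 and -151, with 22.8% of all windows holding one. IRF half-sites also lay in BCL2L11, at -4, and in BBC3, at 28 and 34 after the start. BAX carried 4 E-boxes, at -138, -93, -45 and -14, of which the printed stretch holds those at -138 and -93 beside CCAAT matches at -203 and -148, against 7.26% of all windows with at least 1. The ISRE-like matches among the members were in BBC3 alone, GAAACTGAAA at 26 and GAAAAAGAAA at 32 after the start, and 3.57% of all windows hold one. These matches describe letters in short windows and show no binding.

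With IFN-γ, 4 of the 10 genes rose, 1 fell and 5 did not pass the test. The rises were in PMAIP1 (2.91-fold), BAK1 (1.92-fold), MCL1 (1.52-fold) and BCL2L1 (1.47-fold), so each role had at least 1 rising gene, and the fall was in BCL2 (0.852 of its untreated level). Calls are limma, two-sided, with Benjamini-Hochberg adjusted p under 0.05 over all genes tested, on log2(FPKM + 0.1), a scale that understates the change of low genes. By this rule 13.3% of all tested genes were higher and 9.05% lower, and 22.3% changed in either direction. The groups of 4 libraries did not overlap for those 4 rising genes and for BCL2, where 28.2% of all tested genes lay apart (15.4% upward and 12.9% downward). Called rises of at least 1.5-fold on the log2 scale were found for PMAIP1, BAK1 and MCL1 and for 5.02% of all tested genes. The median log2 change of the 10 was 0.06, beside -0.0047 over all genes tested. Rescaled to TPM, where the median of all genes moved by 0.79, 8 members were called higher and none lower. In that scaling 9442 of the 13598 tested genes were called higher and 20 lower, so the 8 are not read as a result about the members.

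**Figure D1:**
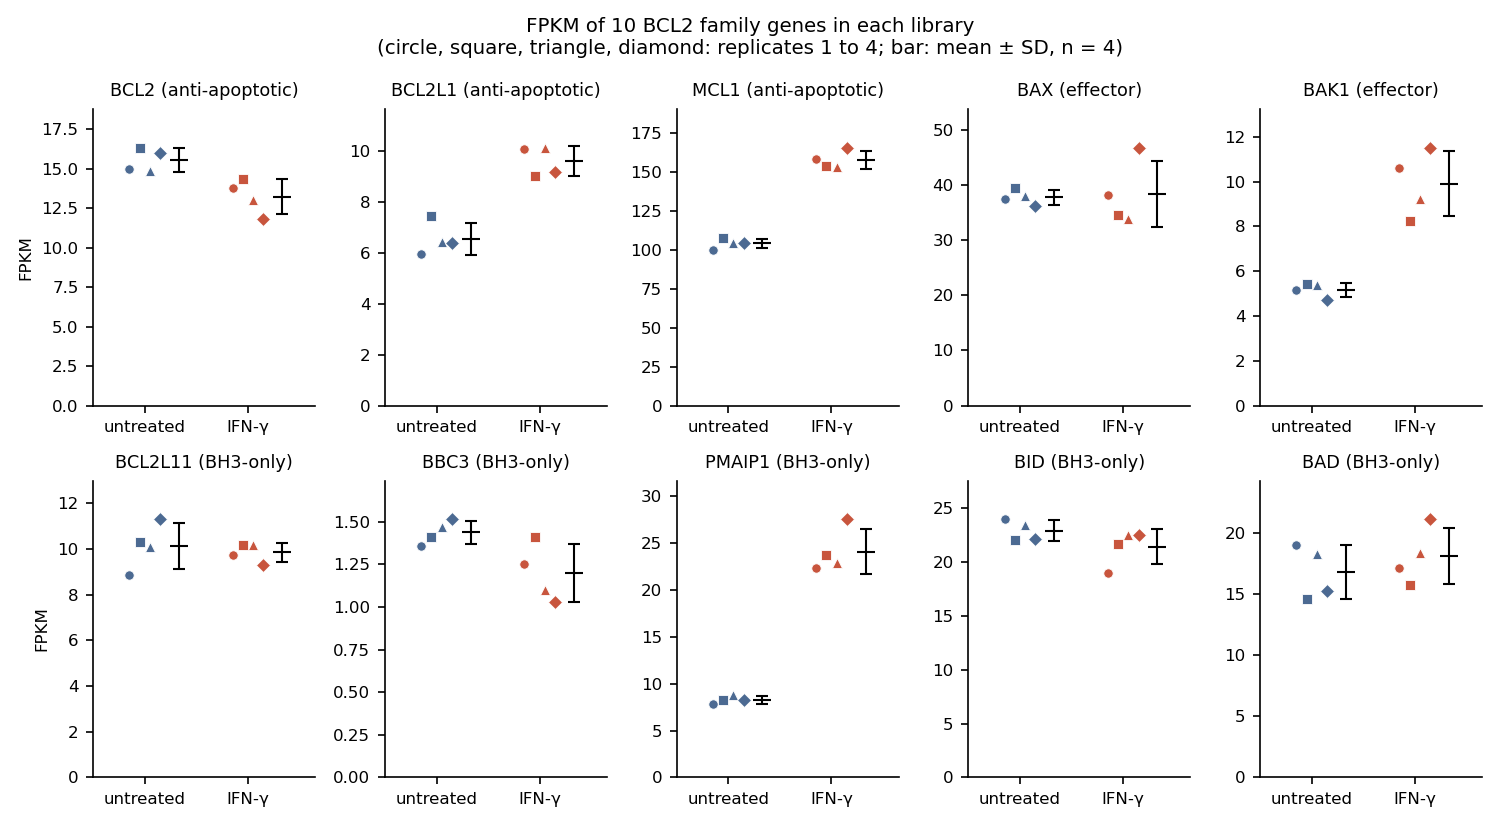
FPKM of each gene in the 4 untreated (blue) and 4 IFN-γ (red) libraries, with bars for the mean ± SD (n = 4). PMAIP1, BAK1, MCL1 and BCL2L1 lay wholly above their untreated values and BCL2 wholly below in these FPKM (in TPM its mean change was upward), while the other 5 genes overlapped between groups.

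The 8 libraries held about 14.1 to 20.5 M fragments by the steps of their low FPKM values. This depth is uncertain, because the step size was sought only within a range set beforehand. The sample records name a target of 100 M reads per library. At the estimated depth 33.5 (BBC3) to 13344 (MCL1) fragments lay behind a member's value in a library, if the longest coding transcript is assumed. Median FPKM of tested genes was 8.93 to 8.98 untreated and 9.14 to 9.28 with IFN-γ. IFN-γ replicate 4 stood apart. Pairs of treated libraries with it varied by 4.30 to 4.91 times the counting variance at that depth, and all other pairs of a group by 1.56 to 2.54 times. It held the highest treated value for 5 members and the lowest for 3. Of 8 noradrenergic neuroblastoma markers HAND2 was at 307 ± 2.62 FPKM untreated and 297 ± 4.82 with IFN-γ (mean ± SD with n = 4, here and below). HAND2 did not pass the test (limma adjusted p = 0.417), though all its treated values lay below the untreated ones. CHGA rose from 481 ± 11.4 to 641 ± 13.1 FPKM (limma adjusted p = 1.2e-04). Of the 8 markers 3 rose and none fell, beside 13.3% and 9.05% of all tested genes. The sum of the 8 markers lay between 1194 and 1219 FPKM untreated and between 1390 and 1456 with IFN-γ. Leukocyte, endothelial, epithelial and glial markers each summed to at most 0.779 FPKM per list in any library, with CD3E listed at 0 throughout. Fibroblast markers summed to 158 to 168 FPKM untreated and 162 to 220 with IFN-γ, nearly all of it DCN (140 ± 4.40 and 143 ± 22.3 FPKM) and LUM (20.3 ± 0.923 and 32.5 ± 6.29), while COL1A2 was listed at 0 in all 4 untreated libraries. LUM rose (log2 change 0.66, limma adjusted p = 0.00152) and COL1A1 fell from 1.86 ± 0.0528 to 1.37 ± 0.170 FPKM (-0.43, limma adjusted p = 0.0217). In TPM the change of COL1A1 was 0.33, below the 0.79 of the median gene. LUM and COL1A1 were the 2 changes among 3 fibroblast markers tested of 5, where 13.3% of all tested genes rose and 9.05% fell. The part of these markers in the members' changes was not tested. Fewer cells of a kind and less RNA per cell cannot be told apart in such bulk samples.

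Among the guardians, MCL1 was the most abundant in every library and rose. MCL1 (ENSG00000143384.12, chr1:150574551-150579738 on the - strand of GRCh38) stood at 100.2, 107.6, 104.4 and 104.3 FPKM in untreated replicates 1 to 4 and at 158.4, 154.0, 153.3 and 165.7 in IFN-γ replicates 1 to 4. The lowest treated library exceeded the highest untreated one, and the spread within a group was small beside the gap. On the log2 scale MCL1 rose by 0.60 (SE 0.04, 95% interval 0.51 to 0.69; limma adjusted p = 2.0e-06), the most precise estimate among the 10.

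BCL2L1 (ENSG00000171552.12, chr20:31664452-31723989 on the - strand) was at 5.97, 7.46, 6.41 and 6.38 FPKM untreated and at 10.1, 9.02, 10.1 and 9.20 with IFN-γ. All treated values were above all untreated ones, with untreated replicate 2 the nearest. Its log2 change was 0.55 (SE 0.08, limma adjusted p = 4.8e-04). The antisense gene ABALON shares 1424 exonic bases with BCL2L1 on the other strand and went from 5.27 ± 0.376 to 7.12 ± 0.537 FPKM (SD, n = 4; log2 change 0.43, limma adjusted p = 0.00235). The library kit does not mark strand, so fragments of the pair cannot be told apart and the division of the rise between them is uncertain.

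BCL2 (ENSG00000171791.12, chr18:63123346-63320128 on the - strand) was the guardian that fell. Its FPKM was 15.0, 16.3, 14.8 and 16.0 untreated and 13.8, 14.3, 13.0 and 11.8 with IFN-γ, the last being the lowest. The groups did not overlap, but the gap between untreated replicate 3 and IFN-γ replicate 2 was narrow. BCL2 changed by -0.23 on the log2 scale (SE 0.06, limma adjusted p = 0.0276). In TPM the change reversed to 0.57 (limma adjusted p = 0.0894), which is -0.22 relative to the shifted median. In TPM without short RNA genes BCL2 was called lower, at -0.32 (limma adjusted p = 0.0346). Leaving out untreated replicate 2 ended the call (adjusted p = 0.0838), as did leaving out untreated replicate 4 (0.0769) or IFN-γ replicate 3 (0.0655). The alternatives gave adjusted p between 0.00776 and 0.0894.

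The proportions of the guardians moved. MCL1 made up 82.7, 81.9, 83.1 and 82.3% of the summed FPKM of the 3 without treatment and 86.9, 86.8, 86.9 and 88.7% with IFN-γ, while BCL2 went from 12.3 ± 0.351% to 7.34 ± 0.732%. BCL2 was at 2.38 ± 0.156 times the FPKM of BCL2L1 untreated and at 1.38 ± 0.143 times with IFN-γ. MCL1 was at 6.70 ± 0.229 times BCL2 untreated and 12.0 ± 1.40 times with IFN-γ, with IFN-γ replicate 4 the highest at 14.0. Such within-library ratios are untouched by a single scaling factor per library, though not by quantile normalization, and none of these 4 quantities overlapped between groups. MCL1 and BCL2L1 lay wholly higher with IFN-γ and BCL2 wholly lower. The separation of the BCL2 share and of both ratios therefore had to follow, and it is no further evidence.

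Of the effectors, BAK1 rose and BAX did not pass the test. BAK1 (ENSG00000030110.12, chr6:33572547-33580293 on the - strand) was at 5.16, 5.41, 5.39 and 4.72 FPKM untreated and at 10.6, 8.26, 9.22 and 11.5 with IFN-γ. Every treated library lay well above the untreated range, although the treated values were widely spread. BAK1 rose by 0.92 on the log2 scale (SE 0.10; limma adjusted p = 9.3e-05), and by 0.84 with IFN-γ replicate 4 removed (adjusted p = 9.0e-05).

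BAX (ENSG00000087088.19, chr19:48954815-48961798 on the + strand) was at 37.6, 39.5, 38.0 and 36.2 FPKM untreated and at 38.2, 34.6, 33.9 and 46.8 with IFN-γ. The treated values fell on both sides of the untreated ones, with IFN-γ replicate 4 the highest of all 8. The log2 change was 0.01 with a 95% interval of -0.19 to 0.21 (limma adjusted p = 0.953), and -0.09 (adjusted p = 0.184) without IFN-γ replicate 4. A rise of the size of BAK1's lies outside that interval. BAX was at 7.27, 7.29, 7.05 and 7.66 times the FPKM of BAK1 without treatment and at 3.59, 4.18, 3.68 and 4.06 times with IFN-γ. BAX thus stayed the more abundant effector RNA, with BAK1 going from 12.0 ± 0.362% to 20.5 ± 1.21% of their sum.

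**Figure D2:**
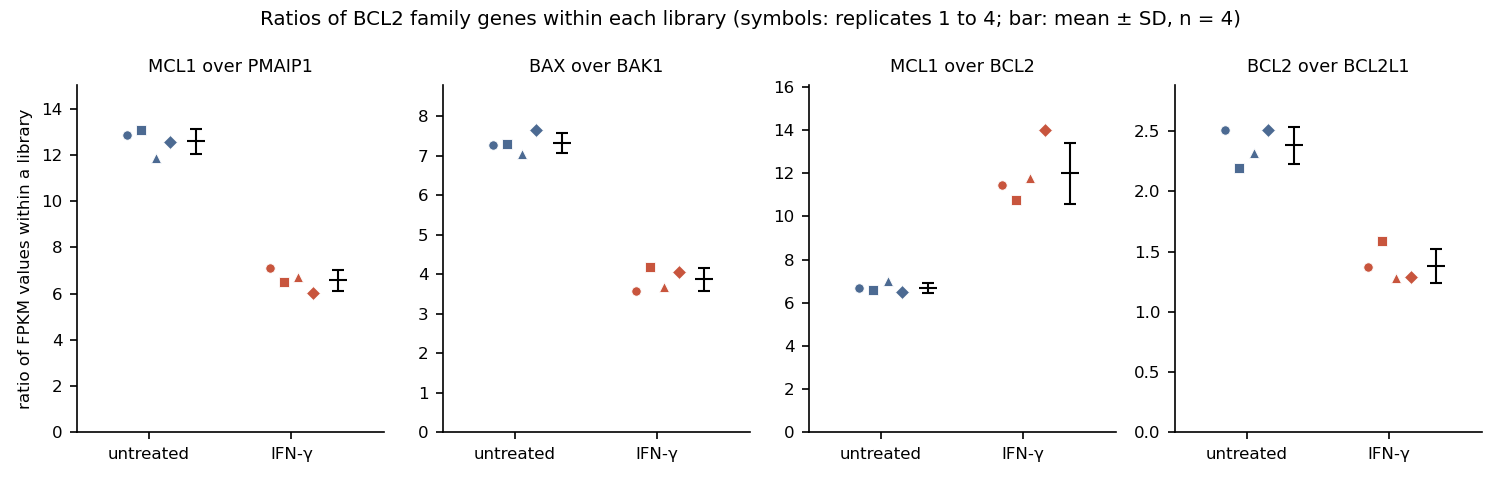
Ratios of FPKM values within each library, untreated in blue and IFN-γ in red, with bars for the mean ± SD (n = 4). MCL1 over PMAIP1, BAX over BAK1 and BCL2 over BCL2L1 were lower in all 4 IFN-γ libraries and MCL1 over BCL2 was higher.

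PMAIP1, the gene of NOXA, had the largest change of the 10. PMAIP1 (ENSG00000141682.11, chr18:59899948-59904306 on the + strand) was at 7.80, 8.22, 8.80 and 8.31 FPKM untreated and at 22.3, 23.7, 22.9 and 27.6 with IFN-γ. The untreated libraries differed little and the treated ones all lay far above them, IFN-γ replicate 4 being the highest. Its log2 change was 1.53 (SE 0.07, limma adjusted p = 8.4e-08), with an interval of 1.37 to 1.68. Among all tested genes 2.84% were called higher by at least 2-fold, and PMAIP1 was the one member that reached this. No annotated gene shares exonic bases with it.

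NOXA's partner MCL1 rose by a smaller factor. MCL1 was at 12.8, 13.1, 11.9 and 12.6 times the FPKM of PMAIP1 without treatment and at 7.09, 6.49, 6.71 and 6.01 times with IFN-γ. Among the 5 BH3-only genes PMAIP1 went from 13.9 ± 0.779% to 32.2 ± 1.39% of the summed FPKM. In the order of levels it moved from the seventh to the third of the 10.

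The other 4 BH3-only genes did not pass the test. BCL2L11 (BIM) was at 8.88, 10.3, 10.1 and 11.3 FPKM untreated and at 9.75, 10.2, 10.2 and 9.32 with IFN-γ, the treated values lying inside the untreated range (log2 change -0.04, 95% interval -0.20 to 0.12). BID was at 24.0, 22.0, 23.5 and 22.1 FPKM untreated and at 19.0, 21.7, 22.6 and 22.5 with IFN-γ, where replicate 1 was the lowest (log2 change -0.10, interval -0.23 to 0.04). BAD, the most variable within the untreated group for its level, was at 19.0, 14.6, 18.3 and 15.3 FPKM and at 17.2, 15.8, 18.4 and 21.1 with IFN-γ (log2 change 0.11, interval -0.13 to 0.35). Limma adjusted p was 0.762 for BCL2L11, 0.290 for BID and 0.522 for BAD.

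BBC3 (PUMA) was the lowest of the 10 and the least precise. It was at 1.36, 1.41, 1.47 and 1.51 FPKM untreated and at 1.25, 1.41, 1.10 and 1.03 with IFN-γ. Only IFN-γ replicate 2 reached into the untreated range. The log2 change was -0.25 with an interval of -0.53 to 0.03 (limma adjusted p = 0.192). At the estimated depth, counting error alone was up to 17.3% of a library's value. BCL2L11 shares 727 exonic bases with MIR4435-2HG on the other strand (11.2 ± 2.01 and 12.0 ± 2.95 FPKM) and BAD shares 404 with GPR137 (9.11 ± 0.565 and 8.72 ± 0.781), so the values of both are uncertain to that extent.

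**Figure D3:**
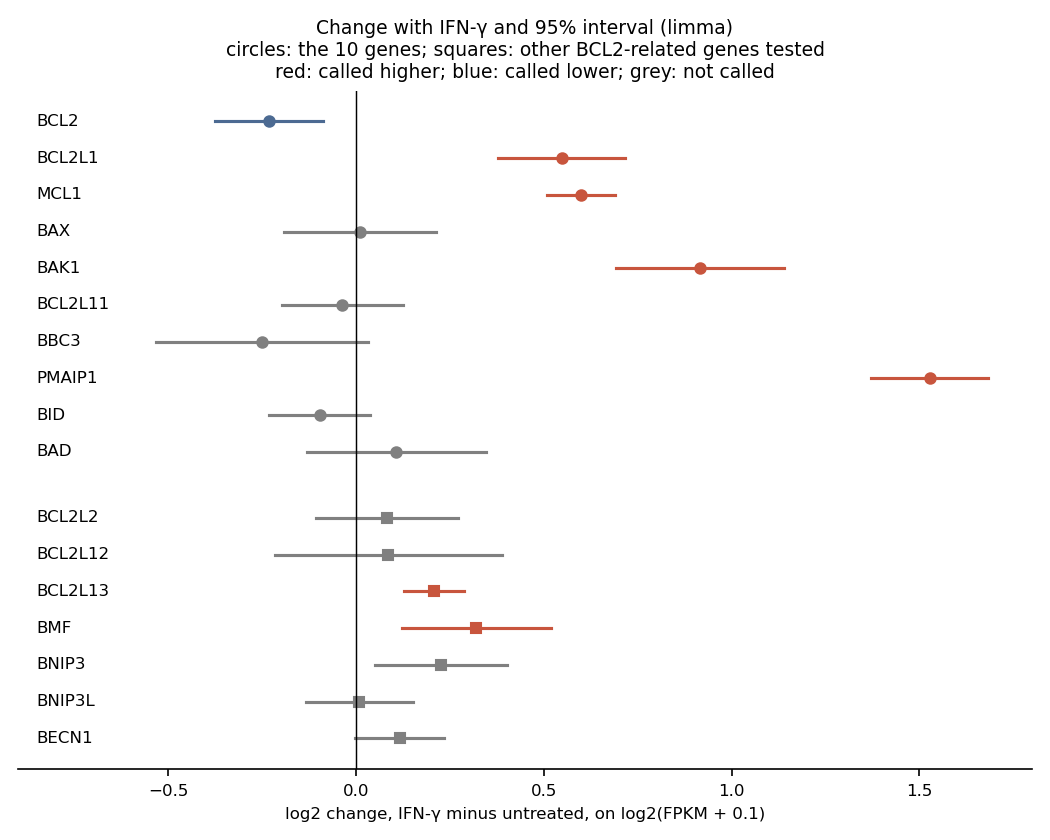
Log2 change with IFN-γ (points) and 95% interval (lines) of the 10 genes and of the 7 other BCL2-related genes that were tested. PMAIP1 (1.53) and BAK1 (0.92) lie farthest right and BCL2 (-0.23, but 0.57 in TPM) has its interval below 0.

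Untreated, the order of levels was MCL1, BAX, BID, BAD, BCL2, BCL2L11, PMAIP1, BCL2L1, BAK1 and BBC3, and all neighbours were separated by their ranges over 4 libraries except BAD and BCL2. With IFN-γ it was MCL1, BAX, PMAIP1, BID, BAD, BCL2, BAK1, BCL2L11, BCL2L1 and BBC3. There PMAIP1 overlapped BID, BID overlapped BAD, BAK1 overlapped BCL2L11 and BCL2L11 overlapped BCL2L1, so BAK1 and BCL2L1 had reached the range of BCL2L11. MCL1 lay at the 96.5th percentile of all tested genes by mean FPKM and BBC3 at the 11.9th. By signed change PMAIP1 was at the 98.0th percentile of all tested genes, BAK1 at the 96.7th, MCL1 at the 94.7th, BCL2L1 at the 94.2nd and BCL2 at the 13.5th.

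**Figure D4:**
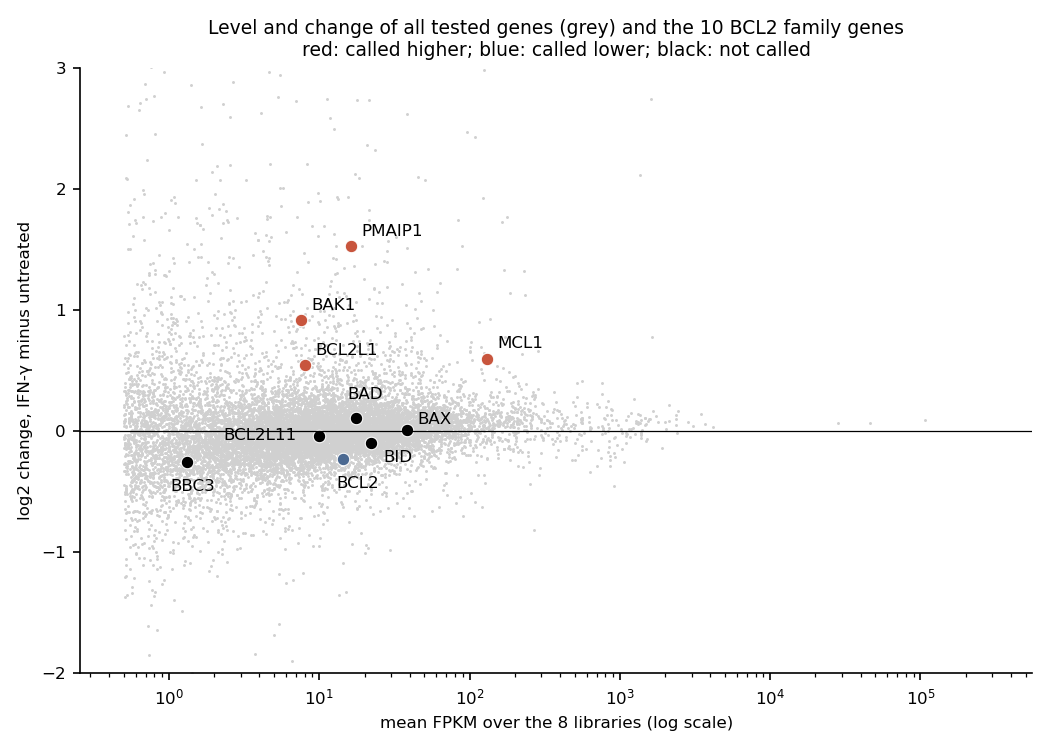
Mean FPKM over the 8 libraries (log axis) against the log2 change with IFN-γ for all 13598 tested genes, with the 10 BCL2 family genes marked. 161 genes lie outside the vertical range of -2 to 3; the 4 called rises stand above most genes of like level, and BCL2 (called lower, but higher without a call in TPM) lies within the cloud.

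The 3 genes outside the lists whose 8 values ran most like those of PMAIP1, by the root-mean-square difference of log2 values each centred on its untreated mean, were IFI16 (0.086), LRCH2 (0.088) and MEGF11 (0.088). IFI16, an interferon-inducible DNA sensor, went from 45.7 ± 1.11 to 133 ± 7.75 FPKM, LRCH2 from 14.7 ± 0.490 to 41.3 ± 1.04 and MEGF11 from 1.05 ± 0.0583 to 3.38 ± 0.242.

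Of 14 further BCL2-related genes 7 passed the filter, of which 2 rose and none fell (limma), nor was any lower at an unadjusted p under 0.05. Over all tested genes 13.3% rose and 9.05% fell by the same rule. BCL2L13, a mitochondrial receptor of mitophagy, rose from 22.0 ± 0.338 to 25.5 ± 0.644 FPKM (log2 change 0.21, limma adjusted p = 0.00202). BMF, a BH3-only gene, rose from 5.52 ± 0.489 to 6.92 ± 0.717 (0.32, limma adjusted p = 0.0276), which no longer passed when any of untreated replicates 1, 2 and 4 and IFN-γ replicates 2 and 3 was left out (adjusted p = 0.0553, 0.0812, 0.0771, 0.0737 and 0.0751). For BMF the alternatives spanned adjusted p from 0.00539 to 0.166, and in TPM without short RNA genes neither BCL2L13 (adjusted p = 0.224) nor BMF (0.166) passed. BNIP3, a mitophagy receptor, lay wholly higher with IFN-γ, at 56.1 to 73.3 FPKM against 49.8 to 54.3 untreated, and did not pass the test (log2 change 0.23, limma adjusted p = 0.0680). The anti-apoptotic BCL2L2 was at 9.33 ± 0.394 and 9.93 ± 1.19 FPKM without a call, and passed upward, at 0.17 on the log2 scale, once IFN-γ replicate 4 was removed (adjusted p = 0.0271). BCL2A1 was listed at 0 in all 4 untreated libraries and at up to 0.0779 FPKM with IFN-γ, and BCL2L10 was at most 0.0474 untreated and 0.261 with IFN-γ, so these guardians were near 0 in both groups.

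Upstream of BID, 6 of 8 tested genes of the death receptor pathway rose and none fell, where 13.3% of all tested genes rose and 9.05% fell. The median log2 change of the 8 was 0.70. CASP10 and FAS averaged under 0.5 FPKM untreated and passed the filter only through their treated values. Both could thus hardly enter except as rises, and the count and the median include them. FADD (limma adjusted p = 0.0686) and TNFRSF10A (0.368) did not pass the test. CASP8, whose product cuts BID, rose from 0.517 ± 0.0801 to 2.49 ± 0.122 FPKM, CASP10 from 0.0539 ± 0.0339 to 2.17 ± 0.316, FAS from 0.141 ± 0.0789 to 2.35 ± 0.112 and the TRAIL receptor gene TNFRSF10B from 1.58 ± 0.0955 to 2.94 ± 0.204. CFLAR, which encodes the caspase-8 inhibitor FLIP, rose from 14.2 ± 1.02 to 20.8 ± 1.07.

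Downstream of the pores, 10 genes of the apoptosome, the proteins released from mitochondria and the inhibitor of apoptosis proteins were tested. Of these 2 rose and none fell (limma), nor was any lower at an unadjusted p under 0.05. With 13.3% of all tested genes higher and 9.05% lower, so small a count is not read as a result about the list. The inhibitor genes BIRC2 and XIAP rose from 15.9 ± 1.13 to 18.7 ± 0.671 and from 11.0 ± 0.412 to 13.8 ± 2.01. XIAP lost its call in 7 of the 8 fits that left out a library, all but that without IFN-γ replicate 4, where its log2 change was 0.43, and also under quantile normalization (adjusted p = 0.0627), without the limma trend (0.0755), without the filter (0.0725) and in TPM without short RNA genes (0.250). BIRC2 lost its call in that TPM scaling (log2 change 0.14, adjusted p = 0.128). CYCS (cytochrome c) and APAF1, the platform on which caspase-9 is activated, did not pass the test at 55.2 ± 2.54 and 63.3 ± 5.72, and at 5.40 ± 0.0991 and 4.99 ± 0.132 FPKM. Their groups did not overlap, with CYCS wholly higher with IFN-γ (limma adjusted p = 0.0516) and APAF1 wholly lower (0.171). Of all tested genes 28.2% lay apart in this way.

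Of 8 genes of the mitochondrial surface on which the family acts, 4 rose and none fell, beside 13.3% and 9.05% of all tested genes. DNM1L, the fission GTPase DRP1, rose from 46.5 ± 0.457 to 75.1 ± 2.59 FPKM (log2 change 0.69, limma adjusted p = 2.2e-07). The channel genes VDAC1, VDAC2 and VDAC3 rose by 0.16, 0.23 and 0.19 on the log2 scale, and each lost its call when any 1 of the 4 untreated libraries was left out. Quantile normalization gave 0.016, 0.073 and 0.069 (adjusted p = 0.749, 0.0810 and 0.208), and TPM without short RNA genes 0.067, 0.14 and 0.099 (0.164, 0.0202 and 0.105).

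Of 11 tested genes in a list of targets of the transcription factor p53, 1 rose, near the share of 13.3% over all tested genes. The list is partial and holds no gene counted in another list. PMAIP1, FAS and TNFRSF10B, which rose, and BAX, BBC3 and APAF1, which did not pass the test, are thus outside it. The count does not describe p53 targets as a whole. TIGAR, a regulator of sugar metabolism, went up from 2.67 ± 0.0496 to 3.31 ± 0.209 FPKM (log2 change 0.30, limma adjusted p = 0.0192), and the other 10, MDM2 and CDKN1A among them, did not pass the test, with a list median log2 change of -0.04. TIGAR no longer passed when untreated replicate 2 or any of IFN-γ replicates 1, 2 and 3 was left out, nor in TPM without short RNA genes (adjusted p = 0.217).

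Of 9 tested genes of transcription factors that act on the family, 5 rose and 1 fell, beside 13.3% and 9.05% of all tested genes. Their median log2 change was 0.31. IRF1 rose from 0.584 ± 0.0404 to 125 ± 2.14 FPKM, STAT3, which acts on BCL2L1 and MCL1, from 30.1 ± 1.55 to 76.3 ± 2.41, FOXO3, an activator of BH3-only genes, from 22.1 ± 0.309 to 29.3 ± 1.60 FPKM, and JUN from 8.42 ± 0.545 to 10.7 ± 0.459. DDIT3, the stress factor CHOP, rose from 6.90 ± 0.719 to 8.60 ± 0.932 FPKM (log2 change 0.31, limma adjusted p = 0.0393), and lost its call in 6 of the 8 fits without 1 library, all but those that dropped untreated replicate 4 or IFN-γ replicate 3, as well as under quantile normalization (adjusted p = 0.0558), without the filter (0.0613), without the limma trend (0.0599) and in TPM without short RNA genes (0.114). The gene that fell was E2F1, a cell cycle factor, from 27.6 ± 1.61 to 22.3 ± 0.255 FPKM (log2 change -0.31, limma adjusted p = 8.8e-04). In TPM the change of E2F1 was 0.50, below the 0.79 of the median gene. Of 12 tested genes of proteins that degrade, stabilize or sequester family members, 4 rose and 1 fell. The shares over all tested genes were 13.3% and 9.05%. FBXW7, a ubiquitin ligase subunit that marks MCL1 for degradation, fell from 38.3 ± 1.24 to 30.7 ± 1.79 FPKM (log2 change -0.32, limma adjusted p = 8.8e-04). In TPM the change of FBXW7 was 0.48 (limma adjusted p = 0.142), below the 0.79 of the median gene. MARCH5, a mitochondrial ubiquitin ligase that acts on the MCL1 and NOXA pair, rose from 20.1 ± 0.418 to 23.2 ± 0.671, YWHAG, a 14-3-3 protein gene of the family that holds phosphorylated BAD, from 169 ± 1.51 to 233 ± 2.00, and PIM1, a kinase of BAD, from 9.63 ± 0.563 to 12.3 ± 0.874. USP9X, which removes ubiquitin from MCL1, rose from 27.4 ± 0.228 to 30.8 ± 1.84, a call lost in 7 of the 8 fits without 1 library, all but that without IFN-γ replicate 4. Quantile normalization put USP9X at 0.093 (adjusted p = 0.211) and YWHAG at 0.30 (adjusted p = 0.00296), and TPM without short RNA genes put MARCH5 at 0.12 (adjusted p = 0.119) and USP9X at 0.078 (0.509), so the calls of MARCH5 and USP9X depend on the scaling.

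**Figure D5:**
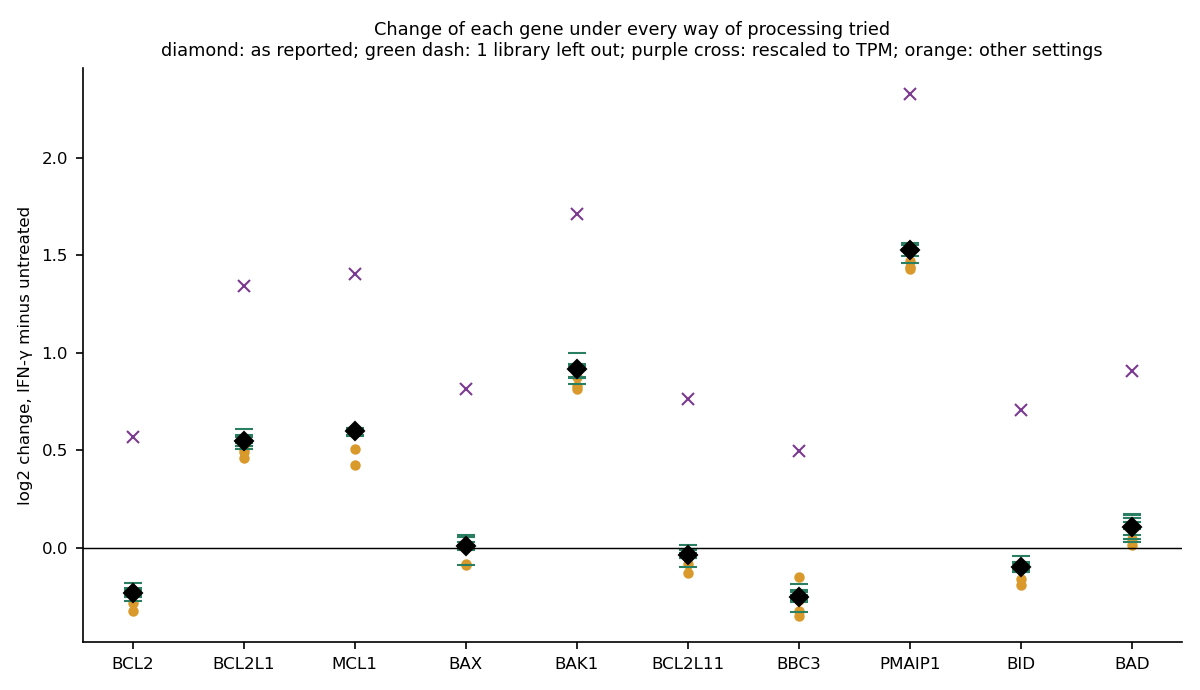
Log2 change with IFN-γ of each gene as reported (diamond), with 1 library left out (green), rescaled to TPM (purple) and under the other settings (orange). PMAIP1, BAK1, MCL1 and BCL2L1 are above 0 in all of them, BCL2 is below 0 in all but TPM, and TPM moves all 10 genes up by about the shift of the median gene, 0.79.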

How the data were processed

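RNA-seq of 8 libraries of BE(2)-M17 cells was used, grouped by the treatment in the labels (4 untreated, 4 IFN-γ). Per the labels' protocols, 1 µg of total RNA per library was made into libraries by a kit without strand marking and read as pairs of 150 nt. The deposited values are FPKM per gene, made with TopHat2 and Cuffdiff on hg38 per the submitters' processing notes. For the annotation, tool versions and options, the sources used here name none. No counts were given, so no count model was used. Depth came from the spacing of low FPKM values. The step in untreated replicate 1 was sought within a range set beforehand, and the other libraries were scaled to it.

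Values were used as log2(FPKM + 0.1). The 13598 genes that averaged 0.5 FPKM or more were fitted together with limma (limma 3.58.1, R 4.3.3, mean-variance trend, two-sided). P-values were adjusted by Benjamini and Hochberg's method across this whole set, with a threshold of 0.05. The fit was also run on simulated data with independent noise of equal spread in both groups. That run does not cover a library that stands apart, as IFN-γ replicate 4 did. Some genes of the lists are not reported here and were left out of the counts. The 10 members and the gene lists were chosen with earlier results of these data known. Beyond the members, the text names up to 5 called genes of each list with the largest change, or up to 2 of the highest level where none was called, the markers of highest level, and the genes nearest in pattern. The genes named besides these as not called, BNIP3 among them, E2F1, COL1A1, the untested BCL2A1, and the overlapping genes were chosen after their values were seen. Alternatives changed the pseudocount (1 or 0.01), the filter (absent, or 1 FPKM), the scaling (median of ratios, quantiles, TPM, or TPM after removing short RNA genes) and the limma options (trend off, robust on, replicate number as a block), or left out each library in turn. Gene positions follow GENCODE 29 (GRCh38, which is hg38), and promoter windows from RefSeq on GRCh38.p14. No library had the same values as another of its group, and every such pair varied by more than counting error at the estimated depth.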

Additional observations from a re-analysis of the deposited data

Results flagged for a closer look

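Among 72 groups of 4 values of the genes named, 6 held a library far from the other 3, where chance alone flags about 1 group in 20. None of the 6 concerned the 10 BCL2 family genes above. In 4 of them the library was IFN-γ replicate 4: XIAP was lowest there at 10.8 FPKM, TIGAR lowest at 3.00, VDAC1 highest at 239 and VDAC2 highest at 237. BCL2L13 was highest in untreated replicate 3 at 22.5 FPKM, and BCL2L10 was at 0.0474 FPKM in untreated replicate 2 and listed at 0 in the other 3.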

How the results depend on the processing

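Over 19 alternatives for each of the 10 genes, 176 of 190 values kept direction and side of the threshold, among them all 76 of PMAIP1, BAK1, MCL1 and BCL2L1. Rescaled to TPM, 9462 genes were called against 3039 (9442 higher and 20 lower), 8 members higher against 4 and 0 lower against 1, and 7 other BCL2-related genes higher against 2. SNORD3A held 53.2, 57.9, 5.97 and 55.7% of the FPKM sums of untreated replicates 1 to 4 and none with IFN-γ. In TPM the median gene moved by 0.79. There BCL2 was at 0.57, BCL2L11 at 0.76, BBC3 at 0.50, BID at 0.71 and FBXW7 at 0.48, all reversed. Without the short RNA genes TPM gave a median change of -0.096 over all genes and BCL2 at -0.32. It gave 0 other BCL2-related genes higher, 1143 genes higher and 1778 lower, BAX at -0.082 and BCL2L2 at -0.0084. Quantile normalization put BAX at -0.088 and gave 1470 genes higher and 2564 lower, against 1809 and 1230. With 1 library left out BAX ranged from -0.089 (no IFN-γ replicate 4) to 0.065 and was -0.011 with untreated replicate 4 removed, and BCL2L11 ranged from -0.098 to 0.017 (no untreated replicate 4). With 1 library left out, 0 to 1 members were lower, 4 were higher in each fit, and 1 to 4 other BCL2-related genes were higher. The causes of these changes were not tested, except that TPM shifts all genes together by its construction. Libraries of the same number did not deviate together (correlations of -0.027 to 0.079), and the fit with the replicate block called 2656 genes, 4 members higher and 1 lower, and ended the calls of XIAP, TIGAR, VDAC1 and VDAC3. Depth limits BBC3 most, at about 33.5 to 50.0 fragments per library at the estimated depth.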
